A study of Mus musculus with 4 samples.

Results

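The genes described here encode the microtubule-associated proteins and stathmins of young neurons. They were taken by symbol from the deposited expression table, as Mapt, Map2, Map1a, Map1b, Dcx, Dclk1, Stmn1, Stmn2, Stmn3 and Stmn4. All 10 were among its 40630 genes, and all 10 were among the 15107 genes tested, those with a mean of at least 1 TPM (transcript level scaled for gene length and library depth) over the 4 libraries. The libraries are total RNA of mouse cortex at E13.5 on a C57BL/6 background. One group holds 2 libraries of Upf2fl/fl embryos that carry Emx1-Cre (cKO-labelled replicates 4 and 5), and the other holds 2 libraries of Upf2fl/+ embryos without Cre (control replicates 8 and 9). Emx1-Cre acts in the progenitors of the dorsal telencephalon and their offspring, so interneurons from the ganglionic eminences, microglia, vessels and meninges in the tissue keep Upf2, an adaptor of nonsense-mediated mRNA decay. The groups differ both in Cre and in floxed allele number. The labels do not say whether a library is 1 embryo or a pool, so the p-values measure only the spread between these libraries, which may be technical.

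Microtubules are hollow polymers of tubulin that newborn cortical neurons use to migrate and to extend axons and dendrites. Structural microtubule-associated proteins (tau from Mapt, and the products of Map2, Map1a and Map1b) bind along the polymer and stabilise it. Doublecortin (Dcx) and the related kinase Dclk1 bind between protofilaments, and mutations of DCX in humans disturb neuronal migration. Stathmins act on the other side of this balance by sequestering tubulin dimers and favouring disassembly; Stmn1 is also made by dividing progenitors, while Stmn2, Stmn3 and Stmn4 are known as neuronal genes.

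The recovered depth was 33537843 to 41680052 reads per library. Upf2 itself had 27.8 and 42.2 TPM with the cKO label, and 23.7 and 41.3 TPM in controls, a whole-gene value that does not check the deletion of a floxed segment. Of all tested genes, 8.14% were called in either direction (limma, adjusted p under 0.05), 2.90% higher and 5.24% lower. The median log2 fold change of all tested genes was -0.16 as deposited and -0.01 after median-of-ratios scaling, so a gene at 0 stood slightly above the middle of the table. The controls differed from each other by base composition. The log2 difference of control replicate 9 from the other control ran against the GC content of transcripts. The Spearman correlation was -0.78 over 14959 genes, which are no independent replicates. Such a difference does not tell which control is the unusual one.

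Stmn4, Stmn3 and Mapt rose in the cKO-labelled libraries, to 3.01, 2.80 and 2.76 times their control means. Stmn1, Stmn2, Map1a, Map1b, Dcx and Dclk1 had positive fold changes that did not pass the test. Map2 had the only negative value. No gene of the group was called lower (limma), also with voom, and none had an unadjusted p under 0.05 in that direction, beside 14.6% of all tested genes. In the higher direction 4 had one, beside 8.20%. The 3 calls among 10 genes stand beside 2.90% of all tested genes called higher. The genes' median log2 fold change was 0.51 beside -0.16 for all tested genes, and 9 of 10 values were above 0 beside 40.7% of all tested genes.

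**Figure D1:**
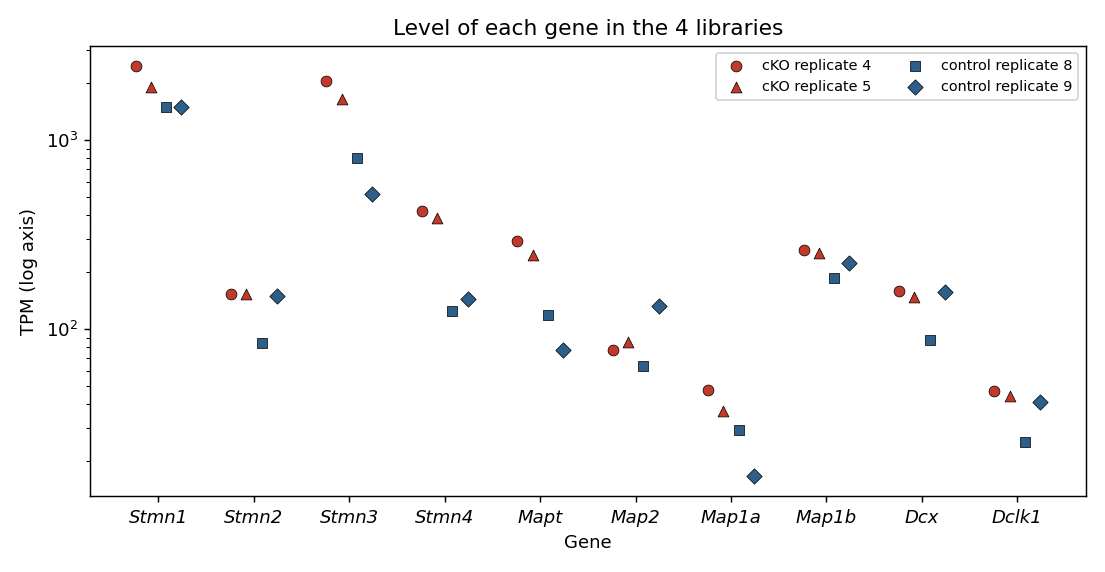
TPM of each gene (log axis) in the 2 cKO-labelled libraries (red) and the 2 control libraries (blue), 1 point per library. For Stmn3, Stmn4 and Mapt both red points lie well above both blue points, while for Dcx and Map2 control replicate 9 (blue diamonds) reaches or passes the red points.

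Promoter sequence was available for 6 of the 10 genes (Map2, Map1a, Map1b, Dcx, Dclk1 and Stmn3), as the 250 bases before the RefSeq start on GRCm38.p6. Stmn3 is shown as the called gene among them, Map2 as the gene at the other end of the fold changes, and Map1b because it holds the same motif as Stmn3. Capitals mark CAGATG or CATCTG, an E-box variant bound by proneural and NeuroD factors, searched on both strands.
Stmn3, chr2:181314501-181314750, minus strand: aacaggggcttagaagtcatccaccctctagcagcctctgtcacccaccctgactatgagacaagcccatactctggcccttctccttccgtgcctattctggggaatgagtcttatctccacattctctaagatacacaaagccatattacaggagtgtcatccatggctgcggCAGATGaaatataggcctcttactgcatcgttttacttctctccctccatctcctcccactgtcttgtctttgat
Map1b, chr13:99516603-99516852, minus strand: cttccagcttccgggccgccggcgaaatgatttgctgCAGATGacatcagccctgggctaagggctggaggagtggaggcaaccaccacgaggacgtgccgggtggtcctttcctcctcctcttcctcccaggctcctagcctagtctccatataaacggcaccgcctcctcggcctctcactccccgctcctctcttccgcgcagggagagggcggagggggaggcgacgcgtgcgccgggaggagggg
Map2, chr1:66175079-66175328, plus strand: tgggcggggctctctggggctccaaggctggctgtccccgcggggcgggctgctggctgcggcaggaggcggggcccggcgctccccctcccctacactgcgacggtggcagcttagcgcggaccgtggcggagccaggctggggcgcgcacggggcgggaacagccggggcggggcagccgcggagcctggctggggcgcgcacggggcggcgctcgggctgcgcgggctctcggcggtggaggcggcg
The motif begins 75 bases before the start in Stmn3 and 213 bases before it in Map1b, and it occurs in 14.4% of 32851 windows of this length. The windows differ in base composition, with 48.8% GC and 3 CG pairs in Stmn3, 66.4% and 19 in Map1b, and 81.2% and 34 in Map2. The wider E-box pattern CANNTG, which includes the marked letters, was found in 4 of the 6 genes and in 66.2% of all windows. A match of letters is a description and no evidence of binding.

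Stmn1 was the most abundant gene of the group. It lies on chromosome 4, 134468320 to 134473843 (GRCm38, plus strand), and had 2445 TPM in cKO-labelled replicate 4, 1893 in replicate 5, 1495 in control replicate 8 and 1485 in control replicate 9. Both cKO-labelled libraries were above both controls, and the control libraries were almost equal. Its log2 fold change of 0.53 ± 0.41 (SE, limma adjusted p = 0.423) did not pass. The 95% interval ran from -0.27 to 1.33, so these libraries do not show that Stmn1 stayed level.

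Stmn3, which encodes a membrane-attached neuronal stathmin, was next in abundance. It lies on chromosome 2, 181306459 to 181314500 (minus strand). It had 2036 TPM in cKO-labelled replicate 4, 1651 in replicate 5, 804 in control replicate 8 and 515 in control replicate 9, resting on 23581 and 20692 reads against 11655 and 6486. The groups were far apart, and control replicate 9 was the lower control. The log2 fold change was 1.51 ± 0.39 (SE, limma adjusted p = 0.00292). Leaving out control replicate 8 gave 1.83, and leaving out control replicate 9 gave 1.19.

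Stmn4, another neuronal stathmin gene, showed the largest fold change of the 10. It lies on chromosome 14, 66344296 to 66361680 (plus strand). Its level was 423 TPM in cKO-labelled replicate 4, 384 in replicate 5, 124 in control replicate 8 and 144 in control replicate 9. Both cKO-labelled values stood far above both controls, and each pair lay close together. The log2 fold change was 1.58 ± 0.35 (SE, limma adjusted p = 0.000265), and it ranged from 1.48 to 1.69 when any 1 library was left out.

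Stmn2, a gene of growing axon tips and a marker of postmitotic neurons, did not pass the test as deposited. It lies on chromosome 3, 8509360 to 8561606 (plus strand), and had 154 and 154 TPM with the cKO label, and 84.9 and 150 TPM in control replicates 8 and 9. The cKO-labelled libraries lay above both controls, but only just above control replicate 9. The log2 fold change was 0.44 ± 0.34 (SE, limma adjusted p = 0.431). Without control replicate 9 it was 0.85 (adjusted p = 0.0123) and without control replicate 8 it was 0.037, so the value turned on which control was used.

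Mapt, the gene of the axonal protein tau, rose with Stmn3 and Stmn4. It lies on chromosome 11, 104231390 to 104332090 (plus strand), and had 293 TPM in cKO-labelled replicate 4, 246 in replicate 5, 118 in control replicate 8 and 77.1 in control replicate 9. As for Stmn3, control replicate 9 was the lower control. Its log2 fold change came to 1.48 ± 0.35 (SE, limma adjusted p = 0.000733). It was 1.79 with control replicate 8 left out and 1.18 with the other control left out. TPM are values of the whole gene, so the shares of tau isoforms were not measured here.

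The calls of Stmn4, Stmn3 and Mapt were lost without cKO-labelled replicate 4 (limma adjusted p = 0.838, 1.00 and 1.00) and without replicate 5 (0.390, 0.420 and 0.428), in which 0.119% and 0.285% of all genes were called higher and where the unlike control pair alone gives the spread. They were also lost with no filter on low TPM (adjusted p = 0.179 for Stmn3 and 0.108 for Mapt, with Stmn4 also missing the threshold), a fit that called 0.0153% of all genes higher and weighs each gene's own spread; over 15 alternatives the adjusted p ranged from 0.000188 to 0.838 for Stmn4, from 0.000310 to 1.00 for Stmn3 and from 0.000517 to 1.00 for Mapt.

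Map2, the gene of a dendritic microtubule-associated protein, had 77.5 TPM in cKO-labelled replicate 4, 85.5 in replicate 5, 63.5 in control replicate 8 and 133 in control replicate 9 (chromosome 1, 66175273 to 66442583, plus strand). The controls lay on either side of the cKO-labelled pair. The fitted log2 fold change was -0.18 ± 0.34 (SE, limma adjusted p = 0.779). It was 0.35 against control replicate 8 alone and -0.70 against control replicate 9 alone (adjusted p = 0.00782, the lowest of 15 alternatives, which reached 1.00), so its direction was not settled by these libraries.

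Map1a, whose product is abundant on mature dendrites and axons, was the least abundant gene of the group. It had 47.8 TPM in cKO-labelled replicate 4, 36.8 in replicate 5, 29.2 in control replicate 8 and 16.8 in control replicate 9 (chromosome 2, 121289600 to 121310832, plus strand). The groups did not overlap, and the log2 fold change of 0.89 ± 0.36 (SE) missed the threshold (limma adjusted p = 0.108). Median-of-ratios scaling, in which 5.11% of all genes were called higher, brought it to 1.05 (adjusted p = 0.0395), and it was 0.51 against control replicate 8 alone and 1.27 against control replicate 9 alone.

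Map1b, an early gene of growing axons, had 262 TPM in cKO-labelled replicate 4, 252 in replicate 5, 187 in control replicate 8 and 222 in control replicate 9 (chromosome 13, 99421446 to 99516540, minus strand). Both cKO-labelled libraries were above both controls by a small margin. The log2 fold change was 0.33 ± 0.35 (SE, limma adjusted p = 0.570) and stayed uncalled in all 15 alternatives. Stmn1 was the other gene of the group with no call in any of them.

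Dcx had 158 TPM in cKO-labelled replicate 4, 148 in replicate 5, 87.0 in control replicate 8 and 156 in control replicate 9 (chromosome X, 143855842 to 143933311, minus strand). Control replicate 9 lay between the cKO-labelled libraries, so the groups overlapped. The log2 fold change was 0.39 ± 0.34 (SE, limma adjusted p = 0.495), with -0.031 when control replicate 8 was left out and 0.81 when control replicate 9 was (adjusted p = 0.0167).

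Dclk1 had 47.0 TPM in cKO-labelled replicate 4, 44.4 in replicate 5, 25.3 in control replicate 8 and 41.1 in control replicate 9 (chromosome 3, 55242364 to 55539068, plus strand). It showed the layout of Dcx, with control replicate 9 close to the cKO-labelled pair. Its log2 fold change was 0.49 ± 0.36 (SE, limma adjusted p = 0.399). Leaving out control replicate 8 gave 0.15, and leaving out the other control gave 0.83 (adjusted p = 0.0306).

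**Figure D2:**
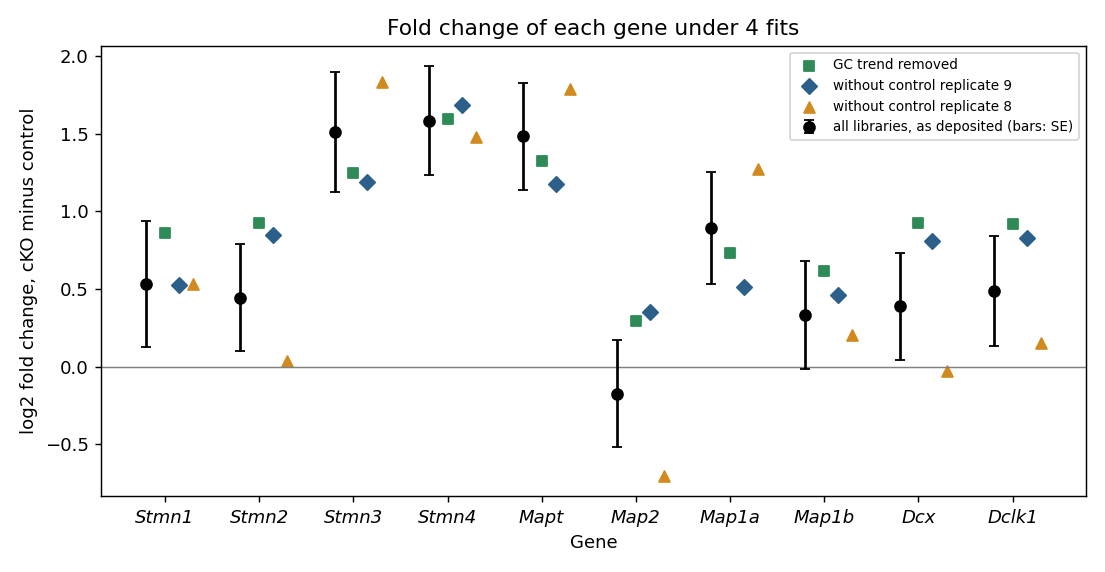
Log2 fold change of each gene, cKO-labelled minus control, from all libraries as deposited (black, bars are the SE of limma), after removal of a GC trend (green), without control replicate 9 (blue) and without control replicate 8 (orange). Stmn3, Stmn4 and Mapt stay above 1 in all 4 fits, whereas Dcx and Map2 take both signs.

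TPM here are per base of a gene's whole annotated exon length, from 1136 bases in Stmn3 to 16449 in Map2. The length of the transcripts in use was not measured. A ranking of the genes within a group is therefore a description of TPM and may not be their order in molecules. In controls the order was Stmn1, Stmn3, Map1b, Stmn4, Dcx, Stmn2, Map2, Mapt, Dclk1 and Map1a. Stmn1, Stmn3 and Map1b were separated from their neighbours, the ranges of neighbours from Stmn4 to Mapt overlapped, and so did those of Dclk1 and Map1a. In the cKO-labelled libraries Stmn4 held rank 3 and Mapt rank 4 (rank 8 in controls), ahead of Map1b, with overlapping ranges between Mapt and Map1b. The ranges of Stmn1 and Stmn3 overlapped there too. The 10 genes together made up 0.594% of all TPM in cKO-labelled replicate 4, 0.489% in replicate 5, 0.302% in control replicate 8 and 0.294% in control replicate 9. The stathmin genes carried most of this sum, with 5057 and 4081 TPM against 2507 and 2293 TPM.

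The differences between the controls followed base composition within the group of genes as well. Mapt, Map1a, Stmn3 and Stmn4 have transcripts of 52.5% to 57.3% GC, and the other 6 genes lie at 41.6% to 48.3%. Control replicate 9 was higher than control replicate 8 by 1.06 in Map2, 0.84 in Dcx, 0.81 in Stmn2 and 0.68 in Dclk1 on the log2(TPM + 1) scale. It differed by -0.76 in Map1a, -0.64 in Stmn3 and -0.61 in Mapt, but by 0.21 in Stmn4, the gene of lowest GC content among these 4. Over the 10 genes the Spearman correlation of this difference with GC content was -0.92, a description across genes that share the same pair of libraries. Differences within the cKO-labelled pair covered a narrower range, from -0.37 in Stmn1 to 0.14 in Map2. In Stmn1 that pair differed more than the controls, which differed there by -0.0097. Fold changes between the groups also moved with GC content (Spearman 0.73 over the 10 genes, 0.55 over 14959 genes). They were 0.89 to 1.58 in the 4 genes of higher GC content, the called genes among them, and -0.18 to 0.53 in the other 6. The part of base composition in these fold changes was not tested.

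**Figure D3:**
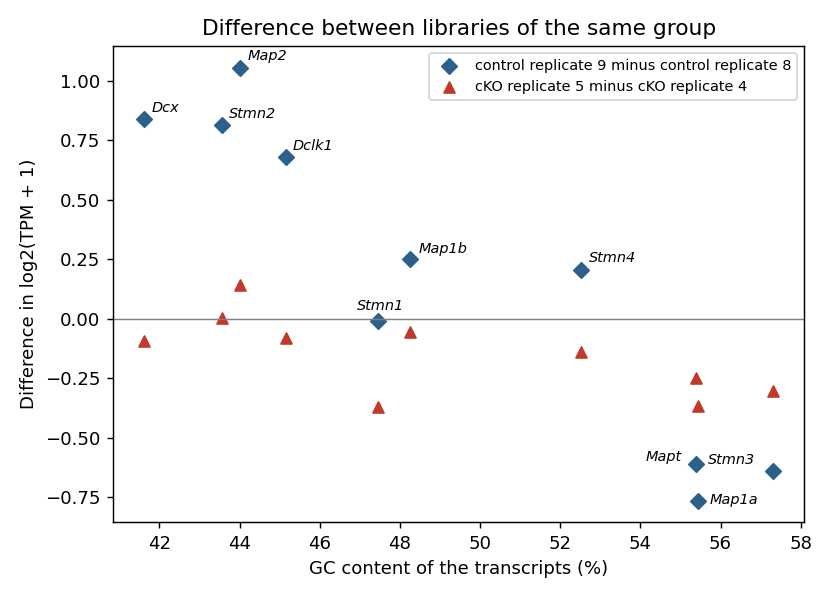
Difference in log2(TPM + 1) between the 2 libraries of a group (y axis) against the GC content of each gene's transcripts in percent (x axis), for the controls (blue diamonds) and the cKO-labelled libraries (red triangles). The control difference goes from 1.06 in Map2, among the genes of lowest GC content, to -0.76 in Map1a, among those of highest.

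After a trend with GC content was removed from each library, all 10 genes were higher in both cKO-labelled libraries than in both controls, beside 32.6% of all genes that could be fitted. As deposited this held for 8 of 10, beside 23.5% of tested genes. In the GC-adjusted fit 6 of 10 were called higher, beside 5.82% of all genes in that fit: Stmn4 (1.60), Mapt (1.32), Stmn3 (1.25), Stmn2 (0.93), Dcx (0.92) and Dclk1 (0.92). The limma adjusted p of Stmn2, Dcx and Dclk1 was 0.0143, 0.0186 and 0.0134 there, while over all alternatives it reached 1.00 for each. The same 6 genes were called without control replicate 9, where 2.56% of all genes were called higher. That fit leaves 1 control library, which is assumed to vary like the cKO-labelled pair, so it is no separate support for those calls. Without control replicate 8, under the same assumption, the calls were Mapt, Map1a, Stmn3 and Stmn4 higher and Map2 lower, beside 18.7% and 30.1% of all genes. Stmn1 (0.86), Map1a (0.73), Map1b (0.62) and Map2 (0.30) remained uncalled after the adjustment. The adjustment also takes out any part of a group difference that moves with GC content, and the 2 cannot be told apart here.

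Ratios between genes of the same library do not depend on the scaling between libraries. The ratio of Stmn4 to Stmn1 was 0.173 in cKO-labelled replicate 4, 0.203 in replicate 5, 0.0832 in control replicate 8 and 0.0968 in control replicate 9. The groups were apart, by 1.06 on the log2 scale. The ratio of Stmn3 to Stmn1 was 0.833 and 0.872 in the former and 0.538 and 0.347 in the latter, also without overlap. The ratio of Stmn2 to Stmn1 overlapped between the groups, with 0.0628 and 0.0812 against 0.0568 and 0.101. The log2 differences of Stmn3 and Stmn2 to Stmn1 were 0.98 and -0.08. After GC adjustment they were 0.74 for Stmn4 and 0.39 for Stmn3, still without overlap, and 0.07 for Stmn2, with overlap. With 2 libraries against 2, an exact permutation test cannot go below p = 0.333 and was not run.

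Against Dcx, the ratio of Mapt was 1.85 and 1.66 in the cKO-labelled libraries and 1.36 and 0.493 in control replicates 8 and 9. The groups did not overlap, but control replicate 8 was near the cKO-labelled pair. The log2 difference was 1.10 as deposited, 0.37 without control replicate 9 and 0.40 after GC adjustment. The ratio of Map2 to Dcx was lower in the cKO-labelled libraries, at 0.490 and 0.578 against 0.730 and 0.851. Both genes have similar GC content, and the difference was -0.57 as deposited and -0.63 after GC adjustment. The ratios of Map1a and Map1b to Dcx overlapped between the groups as deposited, with log2 differences of 0.53 and -0.06. After GC adjustment they were -0.20 for Map1a, with overlap, and -0.31 for Map1b, without overlap.

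**Figure D4:**
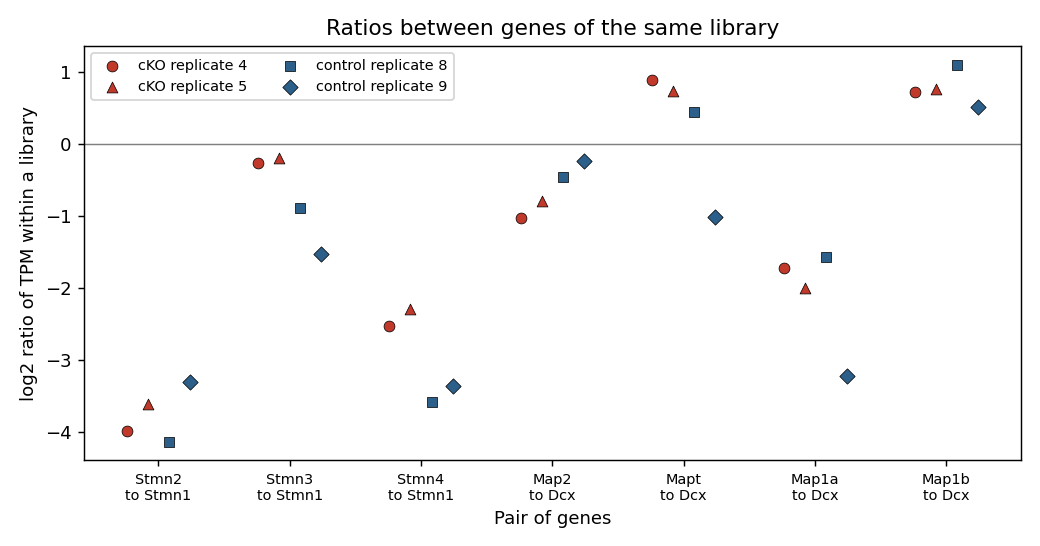
Log2 ratio of TPM between pairs of genes within each library (y axis), with cKO-labelled libraries in red and controls in blue. The red points lie above the blue points for Stmn3 and Stmn4 to Stmn1 and for Mapt to Dcx, below them for Map2 to Dcx, and among them for the other 3 pairs.

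Other genes of neuronal microtubule regulation were counted in 6 lists chosen by function, with 84 genes, of which 82 were tested. Of these, 5 rose and none fell (limma, adjusted p under 0.05), or 6.10% higher beside 2.90% of all tested genes. The median log2 fold change was 0.34, and 60 of 82 values were above 0. At an unadjusted p under 0.05 there were 16 higher and 1 lower, in all 20.7% of the lists beside 22.8% of all tested genes. By direction these were 19.5% and 1.22%, beside 8.20% and 14.6%. Limma voom on recovered reads called 9 higher and 0 lower, beside 3.48% and 5.32% of all genes. Without cKO-labelled replicate 4 or 5 none of them was called, and without control replicate 8 there were 32 higher and 10 lower, where 48.8% of all genes were called.

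Among 11 other structural microtubule-associated protein genes 2 rose. Map6, whose product stabilises cold-resistant microtubules, had 47.2 and 39.3 TPM with the cKO label, and 23.4 and 14.8 TPM in controls (log2 fold change 1.17 ± 0.36 (SE), limma adjusted p = 0.0230). Without control replicate 9 its value was 0.85. Map1lc3a, a light chain of the MAP1 complex that also acts in autophagy, had 269 and 227 TPM against 196 and 73.0 TPM (1.04 ± 0.35 (SE), adjusted p = 0.0370). Its rise rested on control replicate 9, without which it was 0.33. The list median was 0.12.

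None of 11 tested genes of the doublecortin family and of lissencephaly was called, with a median of 0.55 and 8 values above 0. At an unadjusted p under 0.05, and by limma voom, 1 was higher and 0 were lower. The most abundant were Tuba1a, the main neuronal alpha-tubulin gene, at 0.89 ± 0.50 (SE, limma adjusted p = 0.270), and Pafah1b3 at 0.69 ± 0.36 (SE, adjusted p = 0.226). Without control replicate 9 these stood at 0.42 and 0.32.

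Crmp1, a partner of tubulin in semaphorin signalling, was the 1 of 8 collapsin response and axon growth genes that rose. It had 618 and 455 TPM with the cKO label, and 284 and 171 TPM in controls (1.26 ± 0.35 (SE), limma adjusted p = 0.00846). The list median was 0.57, with 6 of 8 values above 0. Among 18 genes of proteins at microtubule ends, Clip2, a plus-end linker gene, rose with 182 and 145 TPM against 93.5 and 54.7 TPM (1.17 ± 0.34 (SE), adjusted p = 0.0137). Without control replicate 9, Crmp1 stood at 0.90 and Clip2 at 0.79. With the GC trend removed as well, both missed the threshold (limma adjusted p = 0.0529 and 0.0635, in ranges of 0.00140 to 1.00 and 0.00121 to 1.00 over the alternatives).

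Of 19 genes of kinases, or of kinase activators, that act on microtubule-associated proteins and stathmins 1 rose. This was Cdk5r1, which encodes the neuronal activator of the tau kinase Cdk5 and no kinase itself. It had 292 and 245 TPM with the cKO label, and 147 and 120 TPM in controls, without overlap (1.00 ± 0.35 (SE), limma adjusted p = 0.0476). Cdk5r1 and Map1lc3a lay near the threshold, and each was called in only 7 of 15 alternatives. Under quantile normalization, for example, both missed it (limma adjusted p = 0.0803 and 0.0690). The list median was 0.45 and 14 of 19 values were above 0. None of 15 tested severing and tubulin modification genes was called, with a median of 0.15, while 3 were higher at an unadjusted p under 0.05 and 1 by limma voom. The most abundant of them, Svbp and Atat1, stood at 0.43 ± 0.35 and 0.75 ± 0.35 (SE, adjusted p = 0.451 and 0.170).

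Among markers of neurons, some pan-neuronal genes rose and no projection neuron gene was called in the reported fit. In bulk tissue, more cells of a type and more RNA per cell cannot be told apart. Of 15 pan-neuronal genes 4 rose (Ina, Celf3, Rtn1 and Scg3) and none fell, beside 2.90% and 5.24% of all tested genes. The median was 0.89, beside 0.51 for the 10 genes, and 14 values were above 0. At an unadjusted p under 0.05, 11 were higher and 0 lower, beside 8.20% and 14.6% of all tested genes. Limma voom called 6 higher and 0 lower, beside 3.48% and 5.32%. With the GC trend removed 8 were higher, beside 5.82%. The list summed to 8621 and 6869 TPM with the cKO label, and 4657 and 3146 TPM in controls. The calls of this list were lost without cKO-labelled replicate 4 or 5. Without control replicate 8 or 9 the list had a median of 0.99 or 0.73. Its most abundant genes, the beta-tubulin gene Tubb3 and the endosomal gene Nsg2, stood at 1.11 ± 0.44 and 0.99 ± 0.36 (SE, limma adjusted p = 0.0954 and 0.0703), and at 0.69 and 0.93 without control replicate 9. Of 16 genes of cortical projection neurons none was called by limma, 2 were higher and 1 lower at an unadjusted p under 0.05, and 1 was higher by limma voom. The median was -0.12, beside -0.16 for all tested genes, and the sums overlapped at 1196 and 1491 TPM against 1313 and 1429 TPM. With the GC trend removed the list median was 0.19, beside 0.02 for all genes in that fit. There 1 gene was higher and 1 lower, beside 5.82% and 5.13%. Without control replicate 8 or 9 the list median was -0.28 or 0.039, so its sign turned on the control. Neurod6 and Neurod2, transcription factor genes of these neurons, stood at -0.33 and 0.28.

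Markers of the ganglionic eminences and of interneurons, cells outside the Emx1 lineage, also differed. Of 18 genes 15 rose and none fell, beside 2.90% and 5.24% of all tested genes. The median was 1.95, and the list summed to 1393 and 774 TPM with the cKO label, and 233 and 400 TPM in controls. No gene of the list was at 0 in any library. Fewer than 15 were called when any 1 library was left out, and fewest without cKO-labelled replicate 4. With the GC trend removed there were 7 calls, beside 5.82% of all genes called higher in that fit. With no filter on low TPM there were 2, beside 0.0153%. Leaving out control replicate 8 gave a list median of 0.90, and leaving out the other control gave 2.66. Sst, an interneuron peptide gene, had 402 and 239 TPM against 48.7 and 36.8 TPM, and the broader Meis2 stood at 0.27 (limma adjusted p = 0.654). Interneurons as well as projection neurons are known to use these microtubule proteins, and the part of these cells in the result was not tested.

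Markers of tissue at the edge of the cortex were lower in the cKO-labelled libraries. All 12 tested genes of cortical hem and choroid plexus and all 10 of meninges fell (limma, adjusted p under 0.05). The former summed to no more than 19.2 TPM with the cKO label, beside 2142 and 2337 TPM in controls. The meningeal sums were 7.95 and 3.91 TPM beside 457 and 255 TPM, and 1 meningeal gene was at 0 in a cKO-labelled library. Of 15 radial glia genes 3 fell (Hes1, Hopx and Emx2) and none rose, with a median of -0.07 and overlapping sums of 4138 and 4042 TPM beside 3726 and 4509 TPM. Of 11 intermediate progenitor genes 3 rose (Insm1, Gadd45g and Mfng) and none fell, with a median of 0.08. Without cKO-labelled replicate 4 both counts of 3 became 0. No Cajal-Retzius or red blood cell gene was called by limma or by limma voom, with 0 and 1 of them at an unadjusted p under 0.05. The red blood cell median was -0.31, with 0 of 8 values above 0. Of 11 microglia and macrophage genes 3 fell (Mrc1, Pf4 and Lyz2), and of 10 endothelial and pericyte genes 1 fell (Tek), beside 5.24% of all tested genes. At an unadjusted p under 0.05, 6 and 4 of these 2 lists were lower and 0 higher, beside 14.6% and 8.20%. Their medians were -0.83 and -0.39, with 0 and 1 values above 0. The call of Tek was lost without cKO-labelled replicate 4 or 5. The microglia count was lower without either of them and higher without control replicate 9. The part of these differences in the microtubule results was not tested.

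The genes whose pattern over the 4 libraries came nearest to the mean of the 10 were Fgf13, Lrp11, Fzd8, Atp8a2 and Scn3b, out of 10288 genes outside all lists. Nearness was the Euclidean distance of centred log2(TPM + 1) values, 0.03 to 0.10 for these 5. Fgf13 had its highest level in cKO-labelled replicate 4 (65.4 TPM) and its lowest in control replicate 8 (33.9 TPM). None of the 5 passed the test (limma adjusted p from 0.182 to 0.242), and 4 libraries are few for a pattern.

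Exons of neighbouring genes overlapped the 10 genes little in GENCODE M21. The largest overlap with a gene on the opposite strand was 2.24% of the exon length of Map1a, with Ppip5k1, which had 3.21 to 4.12 TPM in all libraries. Stmn1 shares 3.43% of its exon length with a small gene model on its own strand. Mapt, Map1b, Dcx, Stmn2, Stmn3 and Stmn4 share no exon with another gene.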

How the data were processed

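RNA was sequenced from 4 libraries, 2 per group. Total RNA was made into libraries with a stranded total RNA kit, per the labels' protocols. STAR and the mm10 build are named in the submitters' processing notes. The sources used here give neither the counter nor its strand setting nor the annotation. What the authors deposited are TPM values, which sum to 1000000 in each library. Symbols turned into dates (27) were restored by gene ID.

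Multiplying TPM by GENCODE M21 exon lengths gave whole reads, to within 0.05, for 100.0% of values, and so the depth of each library. The 349 genes without a length have no recovered reads. PCR copies are not independent molecules, so depth covers counting error only.

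Genes with a mean of at least 1 TPM were tested as log2(TPM + 1) with limma 3.58.1 in R 4.3.3 (intensity trend, empirical Bayes, two-sided, Benjamini-Hochberg over all 15107 genes). A fold change is on this scale and understates low genes. The prior degrees of freedom were infinite in the reported fit, so each SE is a pooled trend, not a gene's own spread. The 15 alternatives covered pseudocount, filter, scaling, empirical Bayes, GC content (a loess trend per library), voom on recovered reads and leaving out each library. GC content came from GENCODE M21 transcripts.

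The 10 genes and all lists were chosen with earlier results of these data known. Named genes are the 10, up to 6 called genes of each microtubule list by smallest p or else its 2 most abundant, up to 2 most abundant markers of a list, the 5 genes of nearest pattern, and Upf2. Other markers named beside a small count complete it and were named after their values were seen.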

Additional observations from a re-analysis of the deposited data

How the results depend on the processing

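Over 15 alternatives, 125 of the 150 fold changes of the 10 genes kept their direction and their side of the threshold, and 4 turned. Genes that stayed uncalled count among the 125, such as Stmn1 and Map1b in all 15. The tally therefore does not measure how stable the calls are. No paired analysis was possible because the groups share no replicate number. With 2 libraries a group, the spread behind every call is that of few libraries, and the causes of the changes below were not tested.

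With no filter on low TPM there were 178 calls (4 higher, 174 lower), none of the 10 genes was called (0; Stmn4 1.58, Stmn3 1.51 and Mapt 1.48 missed the threshold), and the microtubule lists had 0 higher and 1 lower. That fit tests more genes and uses each gene's own spread. With a mean TPM of at least 5 there were 642 calls (328 lower) and 3 higher in the lists. Median-of-ratios scaling and quantile normalization gave 772 and 714 higher calls and 11 and 8 in the lists, and the first called Map1a (1.05). Voom gave 9 in the lists.

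With the GC trend removed, 871 genes and 6 of the 10 were higher, and 10 in the lists. Dcx, Dclk1 and Stmn2 passed (0.92, 0.92, 0.93), Map2 turned to 0.30, Neurod6 to 0.20 and Neurod2 to -0.042, and the log2 ratios of Stmn3 and Stmn4 to Stmn1 differed by 0.39 and 0.74. Without control replicate 9 as well, 520 genes were lower, 6 of the 10 were called (Dcx 0.99, Dclk1 0.96, Stmn2 1.00), Map2 was 0.50 and Neurod6 0.23.

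Leaving out each library in turn gave 176 to 7379 calls (18 to 2830 higher, 158 to 4549 lower), 0 to 6 of the 10 genes higher and 0 to 1 lower, and 0 to 32 higher and 0 to 10 lower in the lists. Fold changes ranged from 1.18 to 1.79 (Mapt), -0.70 to 0.35 (Map2), 0.51 to 1.27 (Map1a), -0.031 to 0.81 (Dcx), 0.15 to 0.83 (Dclk1), 0.037 to 0.85 (Stmn2), 1.19 to 1.83 (Stmn3), 1.48 to 1.69 (Stmn4), -0.71 to 0.056 (Neurod6), -0.045 to 0.58 (Meis2) and -0.26 to 0.52 (Upf2). Log2 ratio differences ranged from -0.50 to 0.33 (Stmn2 to Stmn1), 0.66 to 1.30 (Stmn3 to Stmn1), 0.95 to 1.18 (Stmn4 to Stmn1), -0.69 to -0.45 (Map2 to Dcx), 0.37 to 1.83 (Mapt to Dcx), -0.29 to 1.36 (Map1a to Dcx) and -0.35 to 0.24 (Map1b to Dcx).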
